A study of Mus musculus with 21 samples.

Results

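The BCL-2 family decides whether the outer membrane of the mitochondria stays closed or is opened to release cytochrome c, which starts the caspase cascade of apoptosis. The 10 genes described here were chosen by symbol from the 22050 entries of an mRNA-seq table of sorted mouse keratinocytes. They comprise 4 anti-apoptotic genes (Bcl2, Bcl2l1, Bcl2l2 and Mcl1), 4 BH3-only genes (Bcl2l11, Bmf, Bid and Bad) and 2 effector genes (Bak1 and Bok). All 10 were found in the table and all 10 passed the filter of a mean value of at least 1.

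Anti-apoptotic proteins hold BH3-only and effector proteins in check. BH3-only proteins respond to stress, loss of growth factors or detachment and either block the anti-apoptotic proteins or activate the effectors, which form the pores. Senescent cells are often held alive by anti-apoptotic members, and senolytic drugs such as ABT-737 bind BCL-2, BCL-XL (the product of Bcl2l1) and BCL-W (the product of Bcl2l2), but not MCL-1. The study gave ABT-737 to mice with prolonged p16 expression, so the levels of these genes bear on which targets such cells carry. Much of the family's control lies in splicing, protein stability and phosphorylation, which transcript counts do not measure.

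Both groups were doxycycline-treated mice of mixed FVB, C57Bl and 129sv background, induced from 3 weeks of age for 6 months. Control mice were K5-rtTA/tet-GFP and p16 mice were K5-rtTA/tet-GFP/tet-p16, so both carried the rtTA driver and the GFP transgene, and the p16 mice added human p16 (CDKN2A), an inhibitor of the cyclin D kinases. The keratin 5 promoter drives rtTA in the basal epidermis and in the hair follicle, and GFP+ dorsal skin cells outside the CD140a, CD45 and CD31 gates were sorted from males. Each of the 4 samples per group held about 80000 cells pooled from 3 mice. The other 13 of the 21 samples of the series were not analysed here.

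The libraries held 1760953 to 3414362 reads on genes, so that 1 read was worth 0.74183 to 1.5278 normalized units. Human p16 reads numbered 1, 1, 3 and 1 in control samples 1 to 4 and 2, 13, 18 and 9 in p16 samples 1 to 4, so the library labelled p16 replicate 1 lay within the control range. Between the groups, human p16 had a limma adjusted p of 0.0952 and GFP, on which the cells were sorted, was lower in every p16 than in every control sample (means of 5330 and 3555, log2 difference -0.58, limma adjusted p = 0.0167). The library of p16 replicate 4 stood apart from the other p16 libraries, with a chi-square per degree of freedom of 6.4 to 8.49 against them and 2.95 to 3.19 among the other 3. Its log ratios to the other libraries of its group also ran against transcript length (Spearman rho across genes -0.27), those of p16 replicate 3 with it (0.25). The 7 markers of basal interfollicular keratinocytes summed to 24445 to 41381 in control and 26511 to 30120 in p16 samples, with 0 called. In every sample 5 of 6 endothelial markers stayed at 3 reads or fewer. The T cell markers Cd3e and Ptprc did so too, but Cd3d and Cd3g did not. Cd3d averaged 11.5 in control and 5.28 in p16 samples without overlap (limma adjusted p = 0.172), and Cd3g 0.75 and 2.6. The sums of 8 hair-follicle stem cell markers (6 of them lower by limma) were 11817 to 15962 in control and 9054 to 9151 in p16 samples. Krt15 (mean 10624 and 7066, ratio 0.665) made up most of these sums, while the ratio was 0.07 for Cd34 and 0.231 for Lhx2. Of the 8 means, 7 were lower in p16 samples and 1, that of Postn, was higher (287 and 501, limma adjusted p = 0.272). The sums of 6 sebaceous gland markers (4 of them lower) were 1033 to 1314 in control and 380 to 587 in p16 samples. Scd1 (mean 768 and 280) and Plin2 (379 and 164) made up most of these sums. Mc5r and Awat1 stayed at 3 reads or fewer in every sample. Melanocyte markers summed to 126 to 503 in control and 48.4 to 137 in p16 samples (2 of 6 lower), T cell markers to 7.6 to 18 and 3.6 to 13.3, Langerhans and myeloid markers to 132 to 158 and 141 to 189, and differentiated keratinocyte markers to 5983 to 8394 and 6373 to 9802 (1 of 7 higher and 2 lower). Fibroblast markers summed to 10.8 to 27.3 in control and 42.8 to 221 in p16 samples, carried mainly by Dcn (mean 5.85 and 104, 1 of 6 called higher). Col1a1 (1.78 and 5.67, limma adjusted p = 0.285) and Pdgfra (0.7 and 1.68, 0.756) also had higher means in p16 samples. Col1a2 averaged 10.4 and 2.67 without overlap (limma adjusted p = 0.0571) and Col3a1 1.85 and 0.6, while Lum stayed at 0.

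Across the family, 1 of the 10 genes, Bcl2l11, was lower in p16 cells and 0 were higher at an adjusted p under 0.05 (limma on log2(value + 1), Benjamini-Hochberg over 12782 genes). Of all genes tested, 2.61% were called lower and 1.24% higher. Without adjustment for multiple testing, 1 member was lower and 0 were higher at p under 0.05, against 8.93% and 7.02% of all genes. The groups did not overlap for 1 member, with p16 below, and for 0 with p16 above, against 5.63% and 4.19% of all genes. The median log2 fold change was 0.04 over the 10 members and -0.00 over all genes tested. By role it was 0.02 for the anti-apoptotic, 0.04 for the BH3-only and 0.12 for the effector genes. The effector value is the midpoint of 2 genes of opposite sign, Bak1 (0.36) and Bok (-0.12). In bulk samples such as these, fewer cells of a type and less RNA per cell cannot be told apart.

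**Figure D1:**
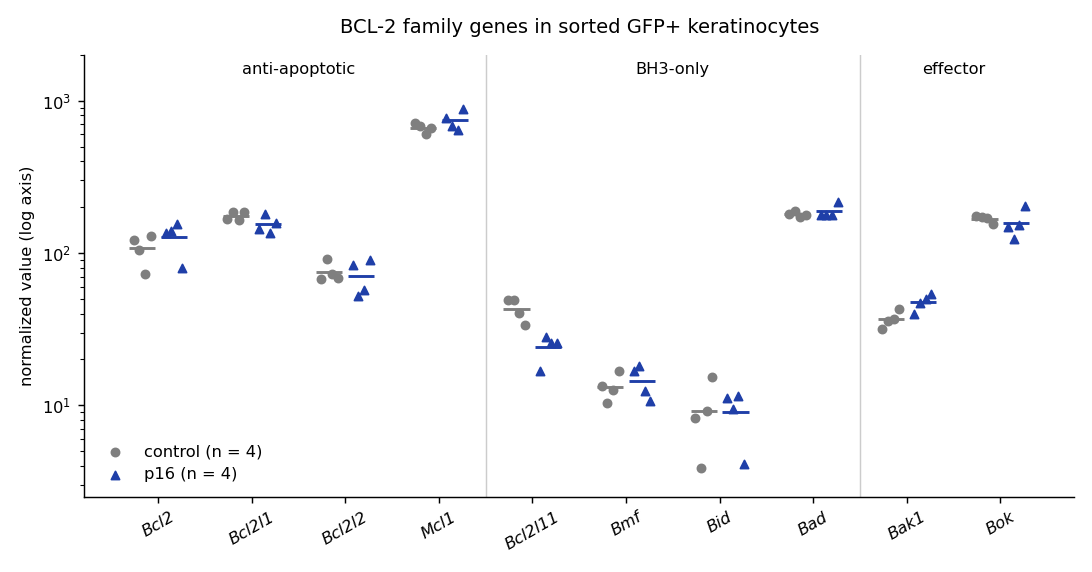
Normalized value (vertical log axis) of each of the 10 genes in the 4 control samples (grey circles) and the 4 p16 samples (blue triangles), in the order of replicates 1 to 4 from left to right, with a bar at each group mean. Bcl2l11 is the gene whose p16 points, 16.8 to 28.1, all lie below its control points, 33.6 to 49.0, and Mcl1 stands highest in both groups.

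Bcl2l11 encodes BIM, a BH3-only protein that binds every main anti-apoptotic member and can activate the effectors directly. It is ENSMUSG00000027381 at chr2:128126038-128162547 on the + strand of GRCm38. The sequence around its first annotated start is shown because FOXO factors, which act when growth factor signalling is low, are known regulators of this gene. It spans chr2:128125788-128126087 on the + strand (RefSeq, GRCm38.p6), from 250 bases before the start to 50 after it, and the capitals mark a match to the FOXO word.

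Bcl2l11 promoter: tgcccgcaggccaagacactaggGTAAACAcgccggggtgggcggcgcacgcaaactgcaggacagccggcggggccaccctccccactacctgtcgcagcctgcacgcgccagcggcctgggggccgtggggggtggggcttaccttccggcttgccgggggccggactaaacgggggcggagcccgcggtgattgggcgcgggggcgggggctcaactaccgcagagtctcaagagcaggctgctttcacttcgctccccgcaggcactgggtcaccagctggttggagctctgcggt

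The word GTAAACA, searched on both strands, began 227 bases before the start and was found in 1 of the 16 promoter windows of the 10 members and in 3.65% of the 32851 promoters in the RefSeq table. The window is rich in G and C, with 71% GC and 27 CpG against medians of 52.7% and 7 over all promoters. This is not particular to it, as the member windows ran from 49.3% GC (Bcl2l1) to 76% (Bcl2). The second Bcl2l11 window had 74% GC and 38 CpG and no FOXO match. The 4 E2F words TTTCCCGC, TTTGGCGC, TTTCGCGC and TTTGCCGC (2.26% of all promoters) and the 4 TCF/LEF words (CTTTG followed by one of AA, AT, TA or TT; 16.9%) each matched 1 member window, and both of these belonged to Bcl2l1. A match in letters is a description of the window and not a measured binding site.

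Bcl2l11 had normalized values of 49.0, 48.8, 40.1 and 33.6 in control samples 1 to 4 and 16.8, 28.1, 25.7 and 25.5 in p16 samples 1 to 4. Every p16 sample lay below every control sample, and p16 replicate 1, the library with the fewest human p16 reads of its group, was the lowest of all. The group mean fell from 42.9 ± 7.45 to 24 ± 4.96 (SD, n = 4 each), a ratio of 0.56. On the log2 scale the difference was -0.82 (SE 0.21, 95% interval -1.28 to -0.36), with a limma adjusted p of 0.0488 and an exact two-sided permutation p of 0.0286, the smallest that 4 against 4 samples allow. The values rest on 66, 38, 48 and 22 reads in the control and 21, 36, 29 and 31 reads in the p16 libraries. Count tests on these reads gave adjusted p-values of 0.0342 with edgeR and 0.0417 with DESeq2. The limma call was lost with a pseudocount of 0.1 (adjusted p = 0.0528), no filter on low values (0.07), total count scaling (0.065) or eBayes without trend (0.0816). It was also lost without control replicate 1 (adjusted p = 0.161), control 2 (0.122), control 3 (0.0921), p16 replicate 1 (0.151, with a log2 difference of -0.66), p16 2 (0.0519), p16 3 (0.0828) or p16 4 (0.051), and held without control 4 (0.0427), while the sign was the same in all these fits. The hair-follicle and sebaceous marker sums lay below the control range in the same 4 samples, and their part in the Bcl2l11 difference was not tested.

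The gene next to Bcl2l11 was much lower in p16 cells as well. Acoxl, which encodes an acyl-CoA oxidase-like protein, is ENSMUSG00000027380 at chr2:127838876-128123873 on the same strand and ends 2164 bases before Bcl2l11 begins. It was named after its values were seen, from a table of the nearest tested protein-coding gene on each side of every member that does not overlap it. Its normalized values were 39.3, 52.6, 51.8 and 32.1 in control samples and 1.6, 7.8, 1.8 and 1.6 in p16 samples 1 to 4. No p16 sample came near the control range, and 3 of the 4 stood at the value that 2 reads give. The log2 difference of Acoxl was -3.62 (SE 0.39, limma adjusted p = 0.000111, exact permutation p = 0.0286). On the other side of Bcl2l11 the nearest tested gene, Anapc1, a subunit of the anaphase-promoting complex, lay 447556 bases away on the opposite strand and had a log2 difference of -0.06 (limma adjusted p = 0.846).

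Among the 20 neighbours of the 10 members, 3 were called lower and 0 higher, against 2.61% and 1.24% of all genes tested. The median log2 fold change of the neighbours was -0.02. The other called genes, also named after their values were seen, were Id1, which encodes an inhibitor of bHLH factors and lies 43257 bases from Bcl2l1 (log2 difference -0.66, limma adjusted p = 0.0135), and Adamtsl4, which lies 13024 bases from Mcl1 (-1.13, adjusted p = 0.0185). Neither Bcl2l1 nor Mcl1 was called.

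**Figure D2:**
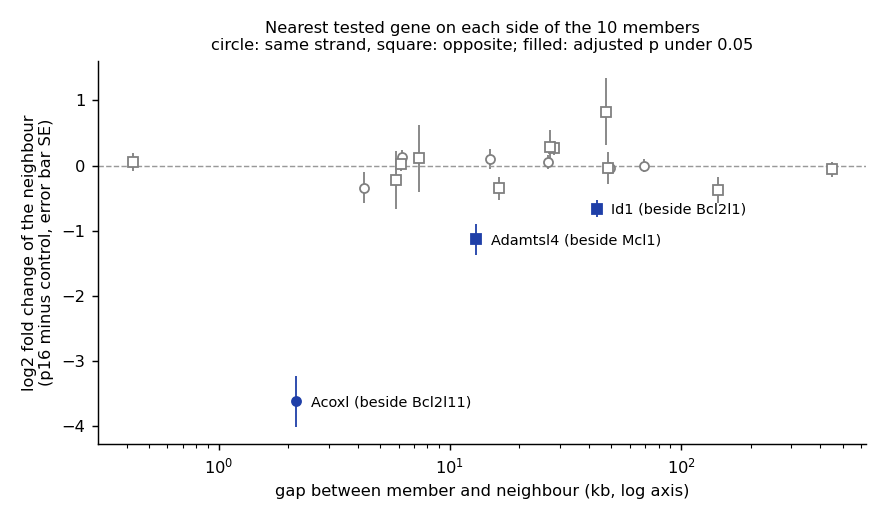
Log2 fold change (p16 minus control, error bar SE) of the nearest tested, non-overlapping protein-coding gene on each side of the 10 members against the gap between both genes in kb (log axis), with circles for the same strand, squares for the opposite strand and filled symbols for an adjusted p under 0.05. Acoxl, 2164 bases from Bcl2l11, lies at -3.62, and the other 2 filled symbols are Adamtsl4 at -1.13 and Id1 at -0.66.

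**Figure D3:**
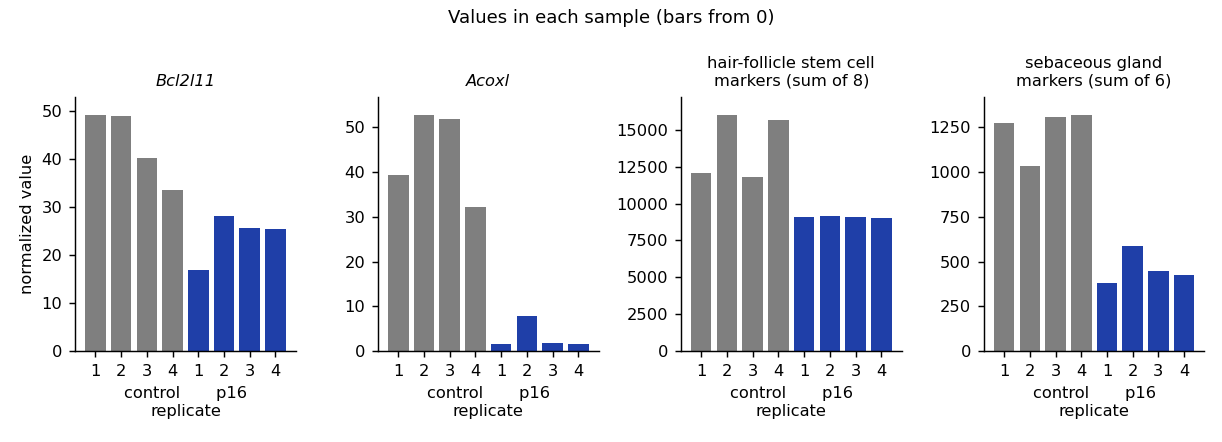
Normalized value in each of the 4 control (grey) and 4 p16 (blue) samples, as bars from 0, of Bcl2l11, of Acoxl, of the sum of 8 hair-follicle stem cell markers and of the sum of 6 sebaceous gland markers. In all 4 panels every p16 bar is shorter than every control bar, down to 1.6 for Acoxl. Krt15 makes up most of the hair-follicle stem cell sum, and Scd1 and Plin2 most of the sebaceous gland sum.

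Of the other BH3-only genes none passed the test. Bmf (ENSMUSG00000040093, chr2:118528757-118549687, - strand) encodes a protein bound to the actin and myosin machinery that responds to detachment. Its values were 13.4, 10.3, 12.5 and 16.8 in control and 16.8, 18.0, 12.4 and 10.7 in p16 samples, with overlapping groups and a log2 difference of 0.11 (95% interval -0.46 to 0.68, limma adjusted p = 0.902). Bid (ENSMUSG00000004446, chr6:120891930-120916853, - strand) links death receptors to mitochondria after cleavage by caspase-8. It was the least abundant member, with 8.2, 3.9, 9.2 and 15.3 in control and 11.2, 9.4, 11.5 and 4.1 in p16 samples. These values rest on 3 to 14 reads, and the log2 difference of 0.03 has an interval of -0.84 to 0.90 (adjusted p = 0.988, limma), so a change of the size measured for Bcl2l11 was not detectable in Bid at this depth. Bad (ENSMUSG00000024959, chr19:6941861-6951899, + strand) encodes a protein that growth factor kinases switch off by phosphorylation. It was the most abundant BH3-only transcript, with 179.5, 188.7, 172.1 and 177.2 in control and 177.5, 178.8, 177.3 and 215.4 in p16 samples. The first 3 p16 samples lay inside the control range and replicate 4 above it, and the log2 difference of 0.06 had an interval of -0.17 to 0.28 (limma adjusted p = 0.865).

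None of the 4 anti-apoptotic genes passed the test in either direction. Mcl1 (ENSMUSG00000038612, chr3:95658788-95663176, + strand) encodes a short-lived protein outside the reach of ABT-737. It was the most abundant member in every sample, at 714.4, 677.6, 604.7 and 660.0 in control and 771.6, 681.6, 646.4 and 886.3 in p16 samples. The means were 664 ± 45.7 and 746 ± 107 (SD, n = 4), the groups overlapped, and the log2 difference was 0.16 (95% interval -0.07 to 0.39, limma adjusted p = 0.522). Without p16 replicate 4, the highest, the difference in Mcl1 was 0.07 (limma adjusted p = 0.8).

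Bcl2l1 (ENSMUSG00000007659, chr2:152780668-152831728, - strand) encodes BCL-XL and, by another splice site, a short form that promotes death. Counts from 3′ ends do not separate these forms. Its values were 166.9, 184.8, 163.7 and 184.9 in control and 143.9, 181.1, 134.8 and 157.0 in p16 samples. The p16 values of 3 samples lay below the control range and that of replicate 2 inside it, and the log2 difference was -0.19 (95% interval -0.44 to 0.06, limma adjusted p = 0.479). An increase above 0.06 on this scale thus lay outside the interval for Bcl2l1, unadjusted for the number of genes.

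Bcl2 (ENSMUSG00000057329, chr1:106538178-106714274, - strand), the founding member, is known in skin for its role in the hair follicle and in melanocytes. Its values were 122.4, 105.2, 72.7 and 128.3 in control and 135.1, 139.8, 155.2 and 79.8 in p16 samples. In 3 p16 samples Bcl2 was above the control range, and in replicate 4 it was below 3 of the 4 controls. The log2 difference was 0.24 (95% interval -0.21 to 0.69, limma adjusted p = 0.659), and 0.45 without p16 replicate 4 (adjusted p = 0.197, limma). Bcl2l2 (ENSMUSG00000089682, chr14:54883377-54888234, + strand) encodes BCL-W, the third target of ABT-737. Its values were 67.5, 91.1, 72.7 and 68.8 in control and 83.2, 52.3, 56.7 and 89.6 in p16 samples. The groups overlapped widely for Bcl2l2, with a log2 difference of -0.12 (95% interval -0.52 to 0.28, limma adjusted p = 0.84).

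Of the effectors, Bak1 (ENSMUSG00000057789, chr17:27019810-27029009, - strand) encodes the pore-forming BAK, which sits in the mitochondrial membrane. Its values were 31.9, 35.9, 36.7 and 42.8 in control and 40.0, 46.8, 49.7 and 53.4 in p16 samples. In 3 p16 samples Bak1 was above the control range and in replicate 1 it was inside it. The means were 36.8 ± 4.5 and 47.5 ± 5.67 (SD, n = 4), a ratio of 1.29, and the log2 difference was 0.36 (SE 0.17, 95% interval -0.01 to 0.73). It did not pass the test (limma p = 0.0555, adjusted p = 0.329, exact permutation p = 0.0571). Bok (ENSMUSG00000026278, chr1:93685660-93695764, + strand) encodes an effector that is not held by most anti-apoptotic members. Its values were 175.1, 172.0, 170.4 and 154.3 in control and 147.9, 124.1, 152.5 and 203.1 in p16 samples. In 3 p16 samples Bok was below the control range and in replicate 4 above it, and the log2 difference was -0.12 (95% interval -0.41 to 0.18, limma adjusted p = 0.756).

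**Figure D4:**
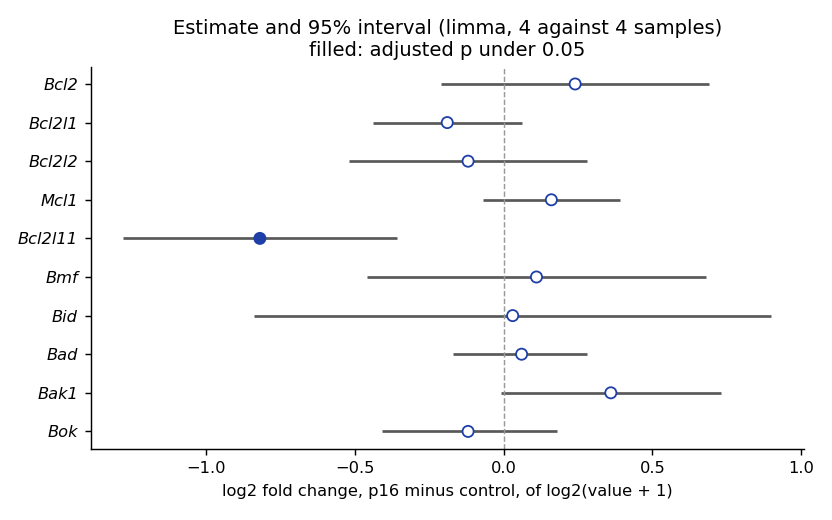
Log2 fold change (p16 minus control, of log2(value + 1)) of each member with its 95% interval from limma over 4 against 4 samples, filled where the adjusted p was under 0.05. Only the interval of Bcl2l11, -1.28 to -0.36, leaves out 0, and that of Bak1 reaches from -0.01 to 0.73.

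Reads were counted from transcript 3′ ends, so levels of different genes were compared without division by length. Comparisons and sums across genes in p16 replicates 3 and 4 also carry the length trends given above (Spearman rho 0.25 and -0.27). In control samples the order of the mean normalized value was Mcl1 (664), Bad (179), Bcl2l1 (175), Bok (168), Bcl2 (107), Bcl2l2 (75), Bcl2l11 (42.9), Bak1 (36.8), Bmf (13.2) and Bid (9.15). Neighbours in this order overlapped in their control values for Bad, Bcl2l1 and Bok, for Bcl2 and Bcl2l2, for Bcl2l11 and Bak1, and for Bmf and Bid. Mcl1 stood at percentile 95 of the control means of all tested genes, Bcl2l11 at 39.8 and Bid at 17.2. In p16 samples Bak1, at 40.0 to 53.4, stood above Bcl2l11, at 16.8 to 28.1, with no overlap.

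The make-up of the family was described by sums of normalized values within a sample, without a test. The 4 anti-apoptotic genes summed to 914 to 1071 in control and 993 to 1213 in p16 samples, and Mcl1 made up 65.1% ± 1.63 and 67.7% ± 3.89 of these sums (SD, n = 4). The 3 genes whose products ABT-737 binds summed to 357 ± 34.2 and 352 ± 20.3, with the p16 range of 326 to 373 inside the control range of 309 to 382. The 4 BH3-only genes summed to 234 to 252 and 222 to 256. Within that sum Bcl2l11 made up 13.8% to 19.6% in control and 7.56% to 12% in p16 samples, and Bad 73.3% ± 1.33 and 79.6% ± 3.39. The anti-apoptotic sum was 24.3 ± 4.47 times the Bcl2l11 value in control and 47.8 ± 13.9 times in p16 samples, which carries the Bcl2l11 difference already given. The effector sum was 205 ± 5.13 and 204 ± 37, with the wide p16 spread set by replicate 4 at 256 and replicate 2 at 171.

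The rest of the pathway was read from 6 lists of 69 genes, of which 63 were tested, with a median log2 fold change of 0.02. Of the 63, 1 was called lower and 0 higher, against 2.61% and 1.24% of all genes tested. Of 18 listed genes, made up of other BCL-2 family genes and genes with a Bnip name, 13 were tested, 1 was lower and 0 were higher. Without adjustment 1 was lower and 2 were higher at p under 0.05, against 8.93% and 7.02% of all genes. The 2, named after their values were seen, were Bnip3 (log2 difference 0.41, limma adjusted p = 0.285) and Bcl2l15 (0.87, 0.301). Both overlapped between the groups. Bnip3 was highest in p16 replicate 4 (356.0), the library that stood apart, and 172.0 to 232.7 in the other p16 samples. Bcl2l15 was low, with means of 3.22 in control and 6.15 in p16 samples. The gene called lower was Bnip3l, which encodes NIX, a receptor that marks mitochondria for autophagy. Its values were 702.5, 604.5, 566.3 and 531.7 in control and 446.2, 470.0, 485.9 and 391.4 in p16 samples, with every p16 sample below every control. The mean of Bnip3l fell from 601 ± 73.8 to 448 ± 41.3, a log2 difference of -0.42 (SE 0.11, limma adjusted p = 0.0432, exact permutation p = 0.0286). Its call was lost with a pseudocount of 0.1 (limma adjusted p = 0.0505), total count scaling (0.0936) or eBayes without trend (0.159). The Bnip3l call was also lost without control replicate 1 (limma adjusted p = 0.145), control 2 (0.0925), control 3 (0.0709), p16 replicate 1 (0.119), p16 2 (0.0597), p16 3 (0.0573) or p16 4 (0.0725).

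The third effector and the p53-responsive BH3-only genes did not pass. Bax, the partner effector of Bak1, averaged 93.1 ± 8.85 and 91.6 ± 13.1 (log2 difference -0.03, 95% interval -0.32 to 0.27, limma adjusted p = 0.956). Bbc3, which encodes PUMA, averaged 51.5 ± 10.8 and 64.2 ± 8.45 (0.33, interval -0.05 to 0.70, limma adjusted p = 0.395). Pmaip1, which encodes NOXA, the BH3-only partner of MCL-1, averaged 24.6 ± 3.89 and 20.7 ± 1.26 (-0.23, interval -0.67 to 0.22, limma adjusted p = 0.669). All 3 overlapped between the groups.

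Downstream of the mitochondria, 11 of 11 listed genes of the caspase pathway were tested and 0 were called, with a median log2 fold change of -0.09. Without adjustment 1 was lower and 0 were higher at p under 0.05, against 8.93% and 7.02% of all genes. The 1 was Cycs, which encodes cytochrome c (means 976 and 813, log2 difference -0.26, limma adjusted p = 0.126). Cycs and Casp2 (-0.16, 0.452), both named after their values were seen, had every p16 sample below every control, against 5.63% of all genes. Among the death receptor genes Tnfrsf1a (0.16, 0.452), also named after its values were seen, had every p16 sample above every control, against 4.19%. Of the 63 tested genes of the 6 lists, 3 lay below and 1 above without overlap. Apaf1, the scaffold of the apoptosome, had a log2 difference of 0.04 (limma adjusted p = 0.969), and its caspase Casp9 one of -0.07 (0.918). Of 5 caspase inhibitors 0 were called (median -0.26), of 8 death receptor genes 0 (0.07), of 17 tested binding partners and stability factors 0 (0.01) and of 9 transcription factors of the members 0 (0.12). Without adjustment these last 4 lists held 1 gene higher and 1 lower at p under 0.05, against 7.02% and 8.93% of all genes. Both were transcription factors, Rela (log2 difference 0.34, limma adjusted p = 0.243) and the FOXO factor Foxo1 (-0.26, 0.292), which were named after their values were seen.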

How the data were processed

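Expression was measured by mRNA-seq in 4 control and 4 p16 samples of GFP+ keratinocytes, grouped by their labels. The authors prepared 3′ libraries by an adapted CEL-Seq2 protocol, trimmed reads with Cutadapt and aligned them to GRCm38 with Tophat2, and the submitters' processing notes also name HTSeq and DESeq2. The deposited signal values are reads per gene over a size factor for each sample, rounded to 1 decimal. The 6 columns of the authors' means and test results were not used. Use of strand or molecular identifiers is not given in the sources used here. Exons of Bid, Bad and Bak1 overlap genes on the opposite strand, Bcl2 an antisense gene and Bcl2l2 the model Gm20521, so a share of their reads could be uncertain.

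Values were tested with limma 3.58.1 (lmFit, eBayes with trend, R 4.3.3) as log2(value + 1), which understates changes of low genes, for the 12782 genes with a mean of at least 1. An exact two-sided permutation test was added for single genes. Whole reads were recovered for 100% of values (within 0.06 of a normalized unit) and given to edgeR 4.0.16 (TMM) and DESeq2 1.42.0. p-values measure the spread between pooled samples. The paper names 3 independent experiments for the 4 replicates, and which sample belongs to which is not given in the sources used here, so no term for experiment was fitted. No library pair of a group was as close as sampling noise. Intervals of 95% are not adjusted for the number of genes. Coordinates are from GENCODE M21 on GRCm38 and promoters from RefSeq, which matched 10 of 10 members with 16 windows. Members and lists were chosen with earlier results of these data known. Named were all members, every called gene of the 6 lists, and Bax, Bbc3, Pmaip1, Casp9 and Apaf1 whatever their result, besides marker and transgene checks. The rule names 1 further gene, which is not reported here. Genes outside the rule are given as named after their values were seen or as a neighbour. Alternatives were other pseudocounts (0.1 and 5), filters (none, or a mean of at least 10), total count scaling, eBayes without trend, a replicate block, each sample left out, and replicate 3 of both groups left out, whose library protocol the labels word differently.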

Additional observations from a re-analysis of the deposited data

Results flagged for a closer look

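Among 56 sets of 4 samples (each named gene, sum or ratio in each group) 4 held a sample far from the other 3 by Dixon's criterion, which chance alone would give in about 1 in 20 sets. Bad in p16 replicate 4 was 215.4, above the other p16 samples, in the library that also stood apart over all genes. Acoxl in p16 replicate 2 was 7.8, the highest of its group and still below every control sample. The effector sum in control replicate 4 was 197, the lowest of the controls. The anti-apoptotic sum over Bcl2l11 in control replicate 4 was 31, the highest of the controls, where Bcl2l11 rested on 22 reads.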

How the results depend on the processing

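Bcl2l11 kept its sign in all 18 other settings, with log2 differences between -0.93 and -0.66 and adjusted p-values between 0.0342 and 0.161, and passed in 5 of them. The number of members called lower was 0 with a pseudocount of 0.1, no filter, total count scaling, eBayes without trend and the replicate block, and 0 to 1 with samples left out. The number called higher was 0 in all 18, and the median log2 fold change of the members lay between -0.04 and 0.1. Fits with samples left out rest on fewer samples, and the cause was not tested otherwise. Acoxl passed in all 18 (-4.07 to -2.62), and Bnip3l in 7.

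Over all genes, the calls higher and lower numbered 66 to 196 and 157 to 343 with samples left out (86 and 177 without control replicate 1, 69 and 192 without p16 replicate 1, 99 higher without p16 replicate 3), and 55 and 183 without the trend. Small differences changed sign when samples were left out: Bcl2 ranged from -0.04 to 0.45, Bcl2l2 from -0.24 to 0.01, Bid from -0.28 to 0.33 (-0.06 without replicate 3 of both groups), Bad from -0.01 to 0.08, Bax from -0.12 to 0.07 (0.02 without control replicate 3), Casp9 from -0.22 to 0.04 and Apaf1 from -0.20 to 0.29. Bax was 0.01 under total count scaling, which moved the median of all genes to 0.03.

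The deviations of same-numbered samples from their group means correlated with r of 0.106, 0.0215, 0.0644 and 0.178 for numbers 1 to 4. Controls 1, 3 and 4 correlated best with their own number and control 2 with p16 1 (0.131). Since r was not over 0.1 in every pair and no label used here says what a number marks, the samples were not treated as pairs. A replicate block gave 216 higher and 392 lower genes, and Bcl2l11 an adjusted p of 0.0568 (limma). Genes with few reads, such as Bid, limit what the depth can show.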
